A study of Mus musculus with 12 samples.

Results

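The genes described here form the core of the interleukin 6 (Il6) family signalling route: the receptor chains Il6ra, Il6st, Lifr and Osmr, the kinases Jak1 and Jak2, the transcription factor Stat3, and the inhibitors Socs1, Socs2 and Socs3. They were chosen by name as parts of this route, with earlier results of these data known, and all 10 were found among the 16503 genes of the culture table and the 16169 genes of the genotype table. RNA sequencing was performed on 12 libraries of mouse muscle stem cells (MuSCs) or their progeny, each from 1000 cells, in 4 groups of 3. In the culture comparison, MuSCs freshly sorted from 3 WT mice were compared with primary WT myoblasts grown for 3 days in growth medium. This asks what differs between stem cells just sorted from muscle and cells grown in culture. The fresh MuSCs had already been digested out of the muscle and sorted, so the effect of leaving the niche is not measured. A number shared by a MuSC and a myoblast library in the labels was read as the same mouse, although no label names a mouse. In the genotype comparison, MuSCs of 3 WT mice were compared with MuSCs of 3 Nedd4L-cKO mice, which asks what the loss of the E3 ubiquitin ligase Nedd4L changes in freshly sorted cells.

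The Nedd4L-cKO mice carried Nedd4L fl/fl and Pax7 cre/+ on a C57BL/6 background, so that Cre made from the Pax7 locus removed exon 15 of Nedd4L in cells with a history of Pax7 expression, and the muscle fibers formed by such cells carry the deletion too. The mice of the genotype comparison were males aged 5 to 6 weeks. The Cre or floxed alleles of the WT mice, and the age of the mice used for culture, were not given in the sources used here. All freshly sorted cells were positive for ITGA7 and Hoechst and negative for CD31, CD45, CD11b and SCA1. The values are bulk measurements, in which fewer cells of a type and less RNA per cell cannot be told apart, and p-values measure the spread between these libraries.

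Cytokines of the Il6 family bind receptor complexes that hold the shared signalling chain gp130, the product of Il6st, and further chains such as Il6ra, Lifr or Osmr. The receptor-bound kinases Jak1 and Jak2 then phosphorylate Stat3, which moves to the nucleus and induces its targets, among them Socs3, whose product binds gp130 and the kinases and shuts the signal off. In MuSCs this route is known for its part in the balance between self-renewal, expansion and commitment to myogenic differentiation.

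The stretches upstream of Socs3 and Jak1 are shown because they were the members whose proximal sequence held one of the 3 motifs searched. Sequences are from RefSeq (GRCm38.p6) and cover the 250 bases before the annotated start, 5′ to 3′ on the gene's strand, with the motif match in capitals.
Socs3 (chr11:117969367-117969616, minus strand): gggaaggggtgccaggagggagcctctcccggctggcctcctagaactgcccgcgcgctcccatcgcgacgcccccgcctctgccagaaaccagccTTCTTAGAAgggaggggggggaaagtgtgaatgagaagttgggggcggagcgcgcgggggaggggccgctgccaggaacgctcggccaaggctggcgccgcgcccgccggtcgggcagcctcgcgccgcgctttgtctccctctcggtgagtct
Jak1 (chr4:101265224-101265473, minus strand): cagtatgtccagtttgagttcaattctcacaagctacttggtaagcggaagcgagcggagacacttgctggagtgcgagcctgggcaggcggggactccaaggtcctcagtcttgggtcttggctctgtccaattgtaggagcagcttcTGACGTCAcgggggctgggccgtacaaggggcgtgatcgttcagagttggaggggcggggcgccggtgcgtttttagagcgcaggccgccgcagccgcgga

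The Socs3 match is to TTCNNNGAA, the palindromic element bound by Stat dimers, and its first base lies at -154 from the start. That motif was present in 7.02% of the 32851 mouse promoter windows of the same length, and in no other member. The Jak1 match is to TGACGTCA, the cyclic AMP response element, with its first base at -101, and that motif was present in 1.55% of windows. The Fos and Jun element TGANTCA was present in 6.75% of windows and in no member. Of the 10 members, 9 had an entry (Lifr with 2 starts), and both strands were searched. A match describes these letters and is not evidence of binding.

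Levels are given in RPM, the deposited normalized count of a gene in parts per 1e+06 of the mean library total of its table. Divided by transcript length, Socs2, an inhibitor best known for dampening growth hormone signalling, was the highest member in all 4 groups, at 125 ± 40.3 RPM per kb in fresh MuSCs and 43.9 ± 1.60 RPM per kb in myoblasts (SD, n = 3). In fresh MuSCs of the culture table, Socs3, Stat3 and Jak1 followed, with mean levels of 61.2, 34.8 and 33.1 RPM per kb whose neighbouring ranges overlapped. Lifr, Il6st and Socs1 formed a middle group between 7.49 and 9.26 RPM per kb, again with overlapping ranges between neighbours. Jak2 (2.77 RPM per kb) and Osmr (1.54 RPM per kb) were lower and overlapped each other, and Il6ra, the chain that binds Il6 itself, was lowest at 0.0831 RPM per kb. The Il6ra range touched that of no other member in fresh MuSCs of the culture table.

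The order was similar in the WT and Nedd4L-cKO MuSCs of the separately normalized genotype table, where Socs2 was also first and Il6ra last, and Jak1, Stat3 and Socs3 occupied the places after Socs2. In myoblasts, Stat3 (22.9 RPM per kb), Jak1 (14.9 RPM per kb) and Il6st (7.96 RPM per kb) followed Socs2 with no overlap between neighbours, while Socs3 stood at 2.09 RPM per kb, level with Lifr and Socs1 within their ranges. Osmr and Il6ra overlapped at the bottom of the myoblast order.

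**Figure D1:**
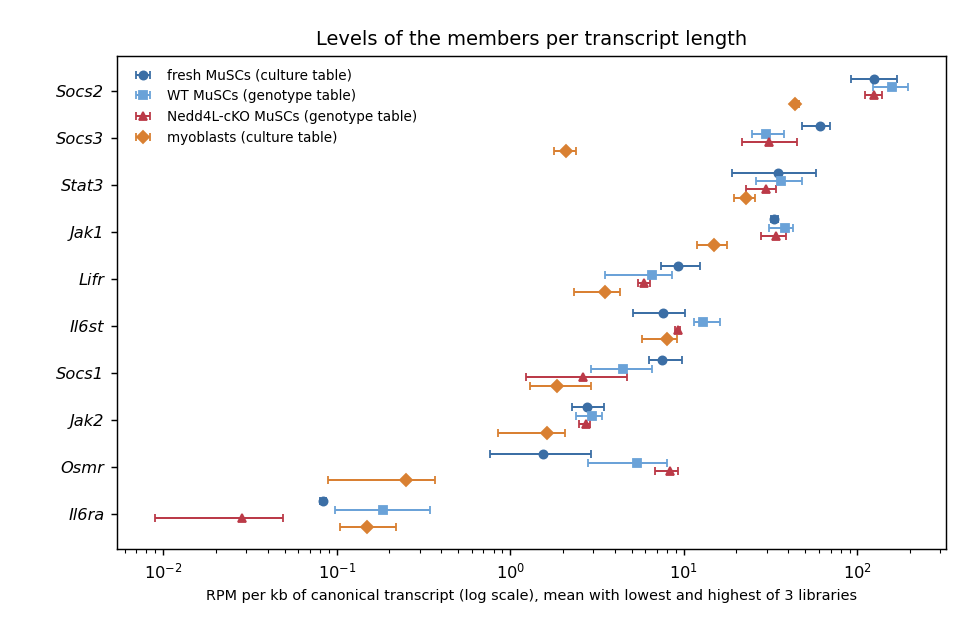
Levels of the 10 members in RPM per kb of the canonical transcript (log scale), with points at the mean and bars from the lowest to the highest of 3 libraries in each of the 4 groups. Socs2 is highest and Il6ra lowest by mean in each group, and Socs3 lies at 61.2 RPM per kb in fresh MuSCs and at 2.09 RPM per kb in myoblasts.

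In culture, 6 of the 10 members passed the threshold, an adjusted p no higher than 0.05 in limma with adjustment over all 15345 tested genes, and these 6 were lower in myoblasts: Socs3, Socs1, Osmr, Socs2, Lifr and Jak1. Among all tested genes, 42.8% were called and 20.6% were called as lower in myoblasts. The median log2 fold change of the members was -1.27, beside 0.04 over all tested genes. The groups did not overlap for 8 of the 10 members, 7 of them lower and 1 higher in myoblasts, where 55.2% of all tested genes showed no overlap in one direction or the other. Stat3 and Il6st were the members whose groups overlapped.

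**Figure D2:**
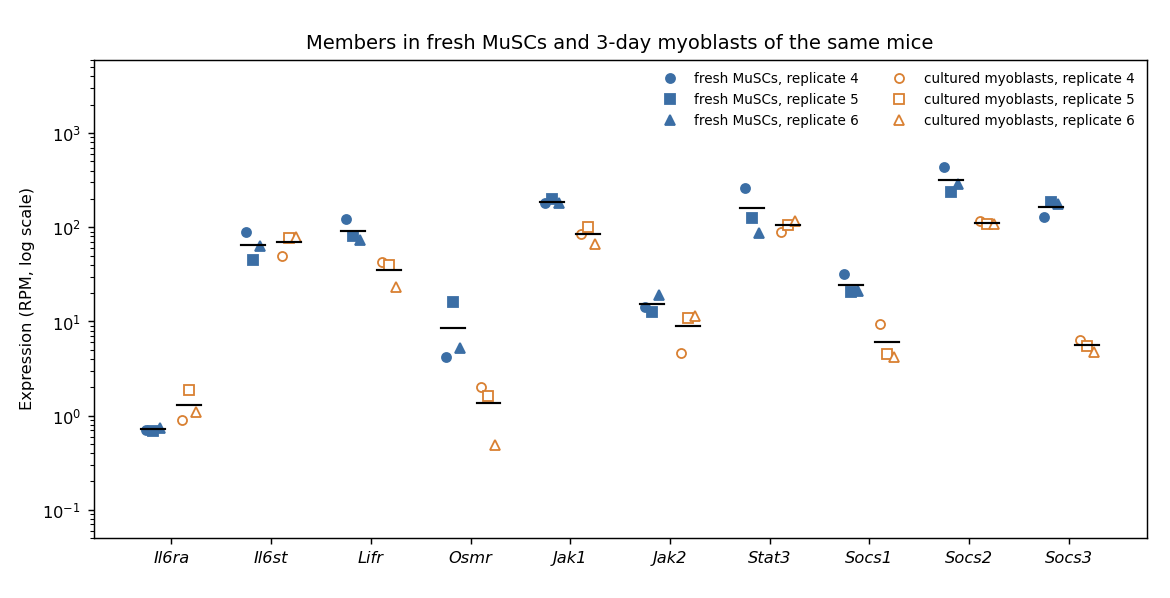
Levels of the 10 members in RPM (log scale) in the 6 libraries of the culture comparison, with filled symbols for fresh MuSCs, open symbols for myoblasts, a symbol shape for each shared library number, read as the mouse, and lines at the group means. Socs3 lies between 128 and 184 RPM in fresh MuSCs and between 4.77 and 6.39 RPM in myoblasts, whereas the groups overlap for Il6st and Stat3.

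Among the receptors, Il6ra (chr3:89771366-89820719, GRCm39, minus strand) was barely detected, at 0.711, 0.695 and 0.747 RPM in the MuSCs of mice 4, 5 and 6 and at 0.896, 1.88 and 1.09 RPM in their myoblasts. Every myoblast library lay above every MuSC library, but the difference of 0.39 (SE 0.24) on the log2 scale did not pass the test (adjusted p = 0.214). Il6st (chr13:112600604-112646620, plus strand), which encodes the chain that all of these cytokines share, measured 88.5, 44.4 and 64.0 RPM in MuSCs and 49.9, 77.9 and 79.5 RPM in myoblasts. The groups overlapped, and the log2 difference of 0.10 (95% confidence interval -0.58 to 0.77, adjusted p = 0.817) left room for a change in either direction.

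Lifr (chr15:7120095-7226970, plus strand), the receptor chain for leukemia inhibitory factor, measured 122, 80.2 and 73.7 RPM in MuSCs and 42.9, 39.3 and 23.0 RPM in myoblasts. It was lower in the myoblasts of each mouse, with a mean 2.63-fold higher in MuSCs and a log2 fold change of -1.38 (SE 0.30, adjusted p = 0.00594). Osmr (chr15:6843053-6904450, minus strand), the receptor chain for oncostatin M, measured 4.17, 16.1 and 5.19 RPM in MuSCs and 2.03, 1.61 and 0.491 RPM in myoblasts. The MuSC libraries spread widely, with that of mouse 5 far above the others, yet none fell to the level of a myoblast library. Osmr fell by 1.85 on the log2 scale (SE 0.50, adjusted p = 0.0171), a call that was lost without myoblast replicate 6 (log2 fold change -1.54, adjusted p = 0.0609).

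Of the kinases, Jak1 (chr4:101008838-101122487, minus strand) was the more abundant, at 183, 198 and 180.2 RPM in MuSCs and 85.4, 100.3 and 67.0 RPM in myoblasts. The MuSC libraries lay close together and well above the myoblast libraries, and Jak1 fell by 1.16 on the log2 scale (SE 0.20, adjusted p = 0.00191). Jak2 (chr19:29228677-29290505, plus strand) measured 14.2, 12.5 and 19.0 RPM in MuSCs and 4.66, 10.8 and 11.3 RPM in myoblasts. The groups did not overlap and the myoblasts of each mouse were lower, but the log2 difference of -0.77 (95% confidence interval -1.63 to 0.08) did not pass the test (adjusted p = 0.128).

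Stat3 (chr11:100775924-100830450, minus strand), the transcription factor at the end of the route, measured 264, 126 and 86.5 RPM in MuSCs and 88.9, 107 and 118 RPM in myoblasts. The MuSC library of mouse 4 stood apart at the top, the other MuSC libraries lay among or near the myoblast values, and the groups overlapped. The change within a mouse was -1.56 on the log2 scale in mouse 4, -0.24 in mouse 5 and 0.44 in mouse 6. The fitted log2 difference of -0.45 did not pass the test (95% confidence interval -1.28 to 0.37, adjusted p = 0.341).

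Among the inhibitors, Socs3 (chr11:117856905-117860898, minus strand), whose upstream letter match is printed above, measured 128, 184 and 177 RPM in MuSCs and 6.39, 5.53 and 4.77 RPM in myoblasts. All MuSC libraries were high and all myoblast libraries low, with means of 163 ± 30.9 and 5.56 ± 0.809 RPM (SD, n = 3), a 29.3-fold higher level in MuSCs. Socs3 fell by 4.63 on the log2 scale (SE 0.25, 95% confidence interval -5.19 to -4.07, adjusted p = 3.81e-06), and the change within mice 4, 5 and 6 was -4.12, -4.83 and -4.94 on that scale.

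Socs1 (chr16:10600104-10603875, minus strand), an inhibitor that binds the kinases directly, measured 31.9, 20.4 and 21.0 RPM in MuSCs and 9.50, 4.51 and 4.24 RPM in myoblasts. The mean was 4.02-fold higher in MuSCs, the groups did not overlap, and Socs1 fell by 1.89 on the log2 scale (SE 0.37, adjusted p = 0.00335). Socs2 (chr10:95219523-95253929, minus strand) measured 432, 234 and 287 RPM in MuSCs and 116, 110 and 109 RPM in myoblasts. The myoblast libraries were nearly equal while the MuSC libraries varied above them, and Socs2 fell by 1.46 on the log2 scale (SE 0.24, adjusted p = 0.00134).

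Other gene groups moved along with the culture comparison and bear on how its values are read. The summed level of 15 immediate early and heat shock genes, which are transcribed within minutes of a stimulus, ranged from 11949 to 18467 RPM in fresh MuSCs and from 718 to 930.3 RPM in myoblasts. Of these, 14 were called as lower in myoblasts and Jun was the exception (adjusted p = 0.0953). Fos fell by 8.24 on the log2 scale, from between 3944 and 7348 RPM to between 17.4 and 18.8 RPM, and the log2 fold changes of Fosb, Nr4a1 and Zfp36 were -8.17, -5.89 and -5.31.

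The 7 fibro-adipogenic markers summed to between 459 and 623 RPM in fresh MuSCs and between 4.36 and 6.84 RPM in myoblasts. Most of that sum was Dpt, which was listed at 0 in all 3 myoblast libraries. Col1a1 went from between 37.9 and 112 RPM to between 0.223 and 0.400 RPM (log2 fold change -5.81) and Dcn from between 5.75 and 46.1 RPM to between 0.0144 and 0.702 RPM (log2 fold change -3.87), both called as lower. Ly6a, which encodes SCA1, was called as higher in myoblasts at 1.45 to 2.50 RPM, and Pdgfra was at or under 2.83 RPM in every library of both groups. These markers are outside the rule for named genes and were singled out after their values were seen. The part of the immediate early genes and of fibro-adipogenic RNA in the lower levels of Socs3, Lifr, Osmr and the other members was not tested. The 8 myofiber markers summed to between 139.6 and 394 RPM in fresh MuSCs and between 10820 and 24597 RPM in myoblasts, with the 7 MuSC markers at 1708 to 2397 and 360.1 to 492 RPM. The 4 leukocyte markers in the table summed to at most 6.65 RPM. Of the endothelial markers, Pecam1 measured 9.45 to 16.0 RPM in fresh MuSCs and 7.48 to 12.8 RPM in myoblasts. Cdh5 was at most 0.356 RPM, and Kdr, Cldn5, Tie1 and Emcn were not in the table.

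**Figure D3:**
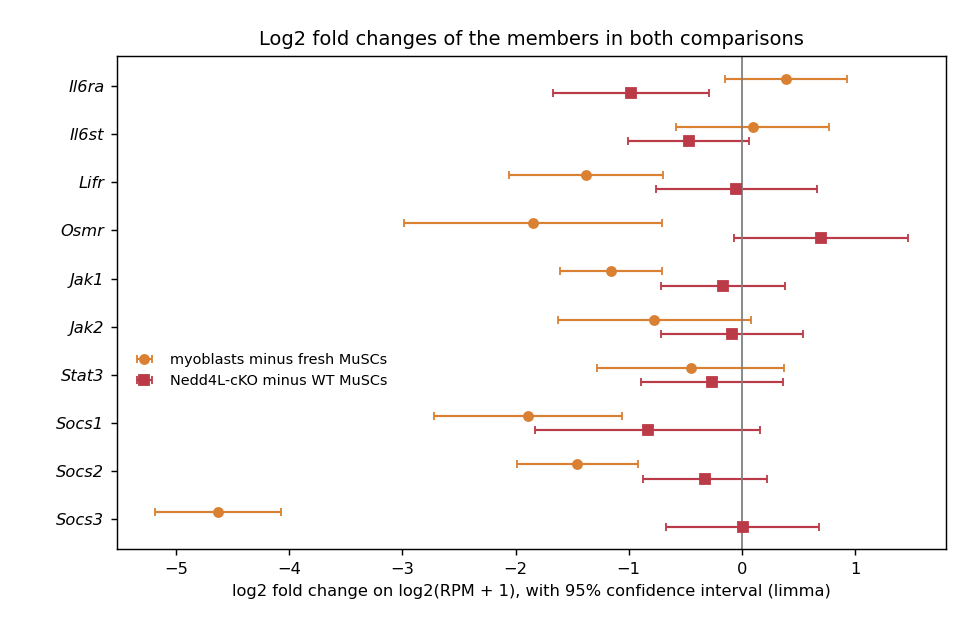
Log2 fold changes of the 10 members on log2(RPM + 1) with 95% confidence intervals from limma, for myoblasts minus fresh MuSCs (circles) and Nedd4L-cKO minus WT MuSCs (squares). The interval of Socs3 runs from -5.19 to -4.07 in culture and from -0.67 to 0.68 between genotypes.

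Between genotypes, none of the 10 members was called by limma (adjusted p no higher than 0.05, log2 fold change of 1 or more in either direction, mean level of 5 RPM or more), and 1 of them, Il6ra, had an unadjusted p under 0.05. Over the 15304 tested genes, 0.653% were called and 14.6% had an unadjusted p under 0.05. The groups did not overlap for 2 members, Il6ra and Il6st, both lower in Nedd4L-cKO MuSCs, beside 19.3% of all tested genes without overlap in one direction or the other. The members' median log2 fold change was -0.22, against 0.0015 over all tested genes. Nedd4l itself measured 70.2, 96.4 and 66.7 RPM in WT and 30.2, 36.3 and 22.5 RPM in Nedd4L-cKO MuSCs, without overlap (log2 fold change -1.37, SE 0.28, adjusted p = 0.0467), although removal of an exon does not by itself end transcription.

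**Figure D4:**
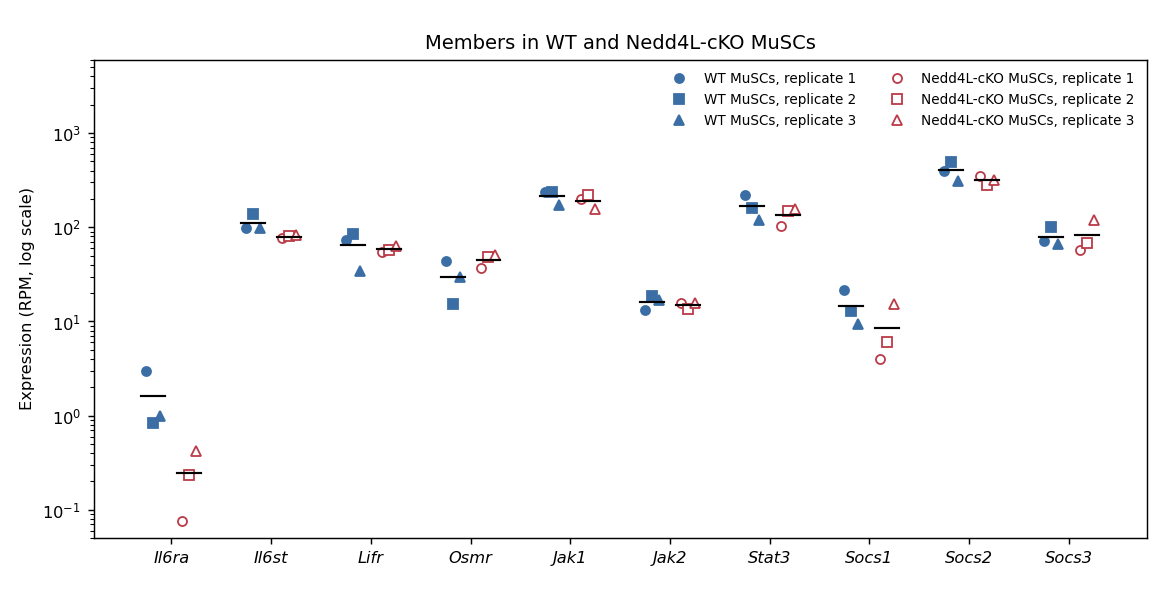
Levels of the 10 members in RPM (log scale) in the 6 libraries of the genotype comparison, with filled symbols for WT MuSCs, open symbols for Nedd4L-cKO MuSCs, symbol shapes for the replicates, which are different mice in each group, and lines at the group means. The groups separate for Il6ra and Il6st and overlap for the other 8 members.

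Il6ra measured 2.99, 0.838 and 0.982 RPM in WT replicates 1, 2 and 3 and 0.0770, 0.236 and 0.425 RPM in the Nedd4L-cKO replicates. All 3 Nedd4L-cKO libraries lay below all 3 WT libraries, and WT replicate 1 stood above the other WT libraries. The log2 difference of -0.98 (95% confidence interval -1.67 to -0.29) was measured at levels of at most 2.99 RPM and did not pass the adjustment (adjusted p = 0.188). It was -2.22 with 0.1 RPM in place of 1 RPM as the constant added before taking logs, and -0.62 without WT replicate 1 (adjusted p = 0.191 and 0.376).

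Il6st measured 99.0, 139 and 98.6 RPM in WT and 76.7, 80.5 and 82.1 RPM in Nedd4L-cKO MuSCs. The Nedd4L-cKO libraries were tightly grouped below the lowest WT library, with means of 112 ± 23.4 and 79.8 ± 2.75 RPM (SD, n = 3). The log2 difference of -0.47 (SE 0.24, adjusted p = 0.405) did not pass the test.

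The other receptors overlapped between genotypes. Lifr measured 74.1, 85.4 and 34.7 RPM in WT and 54.3, 58.0 and 63.1 RPM in Nedd4L-cKO MuSCs, so the Nedd4L-cKO values lay inside the WT range (adjusted p = 0.961). Osmr measured 43.7, 15.4 and 29.9 RPM in WT and 37.2, 48.4 and 50.6 RPM in Nedd4L-cKO MuSCs, a log2 difference of 0.70 with a 95% confidence interval from -0.07 to 1.47 (adjusted p = 0.388). The Osmr level of fresh WT MuSCs thus ran from 4.17 to 16.1 RPM in the culture table and from 15.4 to 43.7 RPM in the genotype table, values from separate mice and separate normalizations that were not compared by a test.

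For the kinases, Jak1 measured 234, 239 and 174 RPM in WT and 199, 218 and 158 RPM in Nedd4L-cKO MuSCs, a log2 difference of -0.17 (SE 0.25, adjusted p = 0.800). Jak2 measured 13.1, 18.6 and 16.7 RPM in WT and 15.6, 13.7 and 15.8 RPM in Nedd4L-cKO MuSCs, a log2 difference of -0.09 (adjusted p = 0.914). Both kinases overlapped between genotypes.

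Stat3 measured 220.0, 161 and 118 RPM in WT and 104, 149.7 and 155 RPM in Nedd4L-cKO MuSCs. WT replicate 1 was the highest library and Nedd4L-cKO replicate 1 the lowest, and the other 4 were intermingled. The log2 difference was -0.27 with a 95% confidence interval from -0.90 to 0.36 (adjusted p = 0.714). It was -0.04 without WT replicate 1, -0.08 without Nedd4L-cKO replicate 1 and -0.49 without WT replicate 3.

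Of the inhibitors, Socs3 measured 70.8, 100.2 and 66.0 RPM in WT and 57.4, 68.8 and 119.9 RPM in Nedd4L-cKO MuSCs, with Nedd4L-cKO libraries at both ends of the range. Its log2 difference of 0.0056 had a 95% confidence interval from -0.67 to 0.68 (adjusted p = 0.996), and its sign turned when each library was scaled to its own total (-0.12). Socs1 measured 21.3, 13.0 and 9.51 RPM in WT and 4.01, 6.09 and 15.4 RPM in Nedd4L-cKO MuSCs, where Nedd4L-cKO replicate 3 alone reached the WT range (log2 difference -0.83, 95% confidence interval -1.83 to 0.16, adjusted p = 0.429). Socs2 measured 399.8, 497 and 311 RPM in WT and 353, 282 and 314 RPM in Nedd4L-cKO MuSCs, a log2 difference of -0.33 (adjusted p = 0.589).

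Among 10049 tested genes whose mean level reached 5 RPM, the genes whose log2 levels ran most closely with Socs3 over the 6 libraries of the genotype table were Igf2r (Pearson r = 0.994), Insig1 (0.986) and Jag1 (0.985). For Il6st they were Faap100 (0.988), Dtx4 (0.988) and Vps26b (0.987). These values describe 6 libraries that share genotype and normalization, and with so many genes compared over so few libraries the values given are those selected for being highest.

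The remaining genes of the route were examined as lists. In the genotype comparison 1 of the 50 tested genes in the 5 pathway lists passed, the ligand Il6, beside 0.653% of all tested genes. Il6, the cytokine for which the family is named, measured 2.52, 4.72 and 10.03 RPM in WT and 39.7, 58.3 and 24.0 RPM in Nedd4L-cKO MuSCs. All Nedd4L-cKO libraries were above all WT libraries, and Il6 rose by 2.70 on the log2 scale (SE 0.44, adjusted p = 0.0225). The adjusted p was 0.0635 without WT replicate 2, 0.0731 without Nedd4L-cKO replicate 1, 0.105 without Nedd4L-cKO replicate 2, and 0.0569 in limma without its trend and robust options. When single libraries were omitted, the log2 fold change lay between 2.30 and 3.13.

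The ligands Lif, Clcf1, Cntf, Ctf1 and Il11 did not pass between genotypes, with log2 differences from -0.58 (Ctf1) to 0.73 (Cntf). Neither did any of the 4 other receptors, the 7 other Jak and Stat genes, the 14 other inhibitors or the 18 Stat3 response genes, of which 0, 1, 1 and 5 respectively had an unadjusted p under 0.05 in limma. Over all tested genes, 14.6% had such a p. Of the 5 Stat3 response genes with such a p, 4 were higher and 1 was lower in Nedd4L-cKO MuSCs. Cish, an inhibitor of the Socs family that is a classical Stat5 target, was the closest among the inhibitors, at 6.36, 1.11 and 5.25 RPM in WT and 17.9, 13.1 and 28.1 RPM in Nedd4L-cKO MuSCs (log2 difference 2.11, adjusted p = 0.0721). Among the Stat3 response genes, Birc5 had the lowest adjusted p (0.0638, log2 difference 2.06). Birc5 measured 35.3, 7.91 and 12.1 RPM in WT and 85.6, 54.7 and 62.3 RPM in Nedd4L-cKO MuSCs. Cish and Birc5 are outside the rule for named genes and were singled out after their values were seen.

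The sums of other gene groups are given beside these genotype values. Fibro-adipogenic markers summed to between 719.6 and 2011 RPM in WT and between 699.8 and 2636 RPM in Nedd4L-cKO MuSCs, ranges that overlapped. The 5 mural markers summed to between 1184 and 1901 RPM in WT and between 2164 and 3190.0 RPM in Nedd4L-cKO MuSCs, and the 8 myofiber markers to between 188 and 385 and between 487 and 644 RPM. Of the mural markers, Rgs5, Kcnj8 and Notch3 overlapped between genotypes, Acta2 and Myh11 were higher without overlap, and none was called. Mitochondrial genes took 2.83% to 4.04% of the normalized counts in WT and 5.60% to 6.21% in Nedd4L-cKO MuSCs. The part of these gene groups in the values of Il6, Il6st and Il6ra was not tested. The 5 leukocyte markers in the table summed to at most 38.8 RPM, of which 33.6 RPM was Lyz2 in WT replicate 3, and the endothelial markers Cdh5, Kdr, Cldn5 and Emcn were not in the table. The summed level of the immediate early genes overlapped between genotypes, at 8542 to 10608 RPM in WT and 8975 to 10881 RPM in Nedd4L-cKO MuSCs. Taken singly, 3 of the 15 genes fell without overlap after the loss of Nedd4L and 2 rose without overlap. In limma 6 of the 15 had an unadjusted p under 0.05, 4 falling and 2 rising, beside 14.6% of all tested genes. Only Ier3 was called, as rising (log2 fold change 1.31, adjusted p = 0.0467). That call was lost without any one of the 6 libraries (adjusted p from 0.0842 to 0.135).

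**Figure D5:**
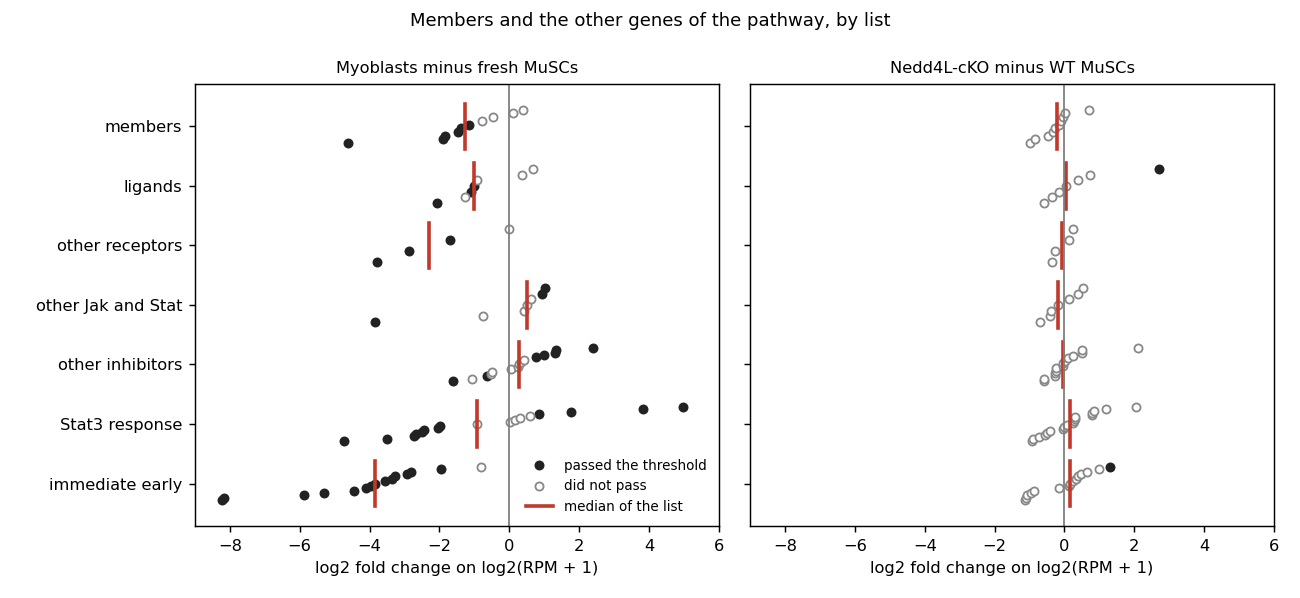
Log2 fold changes on log2(RPM + 1) of the members and the tested genes of 6 lists, for myoblasts minus fresh MuSCs on the left and Nedd4L-cKO minus WT MuSCs on the right, with filled points for genes past the threshold of that comparison and red lines at the list medians. In culture 14 of 15 immediate early genes lie past the threshold on the lower side, and between genotypes the filled points are Il6 and Ier3.

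In culture 28 of the 50 tested pathway genes outside the members were called, 11 higher and 17 lower in myoblasts, beside 42.8% called and 20.6% called as lower over all tested genes, shares that apply to each list below. Of the 4 other receptors, 3 fell: Il11ra1, the receptor chain for interleukin 11, Cntfr, the chain for ciliary neurotrophic factor, and Lepr, the leptin receptor. Il11ra1 measured 412, 365 and 305 RPM in MuSCs and 41.1, 17.2 and 21.7 RPM in myoblasts (log2 fold change -3.79, adjusted p = 3.07e-05). Cntfr went from between 5.53 and 10.7 RPM to between 0.114 and 0.130 RPM (log2 fold change -2.87), and Lepr from between 1.36 and 7.13 RPM to between 0.392 and 0.421 RPM (log2 fold change -1.70). Cntfr entered the test through its MuSC libraries alone, so its call adds no support beyond the listed values.

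Among the ligands in culture, Cntf and Lif were low in both groups, at most 4.08 RPM, and fell by 1.09 (adjusted p = 0.00997) and 1.01 (adjusted p = 0.0238), the latter call being lost without MuSC replicate 6 or without any one of the 3 myoblast libraries (adjusted p from 0.0554 to 0.0655).

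Clcf1, Il6, Ctf1 and Il11 were not called in culture. Clcf1 had a log2 difference of -0.92 (adjusted p = 0.0563). Il6 was listed at 0 in the MuSCs of mouse 4 and at 3.07 and 6.01 RPM in those of mice 5 and 6, beside 0.0816, 0.407 and 0.373 RPM in myoblasts (adjusted p = 0.123), and it was called without MuSC replicate 4 (log2 fold change -2.07, adjusted p = 0.00226). Ctf1 and Il11 were split by myoblast replicate 4, without which both were called as higher in myoblasts (adjusted p = 0.0289 and 0.0133), beside 0.721 and 0.194 with all libraries.

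Among the other Jak and Stat genes, Stat6, which serves interleukin 4, and Jak3, partner of the common gamma chain, rose in culture. Stat6 rose by 1.02 (adjusted p = 0.0284), a call lost without MuSC replicate 5 or 6 or myoblast replicate 4 or 5 (adjusted p from 0.0551 to 0.0991). Jak3 remained at or under 2.06 RPM, and its call (log2 fold change 0.92, adjusted p = 0.0398) was lost with mouse as a replicate block (0.0538) and without any one of the MuSC libraries (0.0655 to 0.112).

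Among the 15 other inhibitors, 5 rose and 2 fell in culture. Pias1, a ligase that restrains Stat proteins, fell by 1.61 (adjusted p = 0.000447), from between 221 and 347 RPM to between 81.5 and 101 RPM. Pias4 rose by 1.35 (adjusted p = 0.00863) and Sh2b3, an adaptor that binds Jak2, by 1.31 (adjusted p = 0.0125). Ptpn6, a phosphatase that acts on Jak kinases, was listed at 0 in all 3 MuSC libraries and at 6.36, 4.96 and 2.34 RPM in myoblasts (adjusted p = 0.000468). It entered the test through its myoblast libraries alone, so this adjusted p adds no support beyond the listed values.

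The 17 tested Stat3 response genes moved in both directions in culture, with 8 lower and 4 higher in myoblasts. Cebpd, a transcription factor of the acute phase response, fell by 4.73 (adjusted p = 6.23e-06), from between 195 and 402 RPM to between 9.10 and 10.8 RPM. Pim1, a survival kinase, fell by 3.50 (adjusted p = 0.000135), from between 22.9 and 51.9 RPM to between 1.49 and 2.83 RPM. In the opposite direction, Timp1, a secreted inhibitor of metalloproteinases, rose by 4.97 (adjusted p = 3.19e-05), from between 1.06 and 4.44 RPM to between 94.9 and 144 RPM, and Bcl2l1, which blocks apoptosis, rose by 3.83 (adjusted p = 8.82e-06), from between 12.8 and 16.9 RPM to between 186 and 292 RPM. Genes counted as targets of Stat3 were found on both sides of the comparison in which Stat3 RNA was not called. Phosphorylation of Stat3 is not measured by these libraries.

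In the GENCODE M39 annotation (GRCm39), the span of each of the 10 members, introns included, is overlapped by at least 1 gene on the opposite strand. In these unstranded libraries, reads from exonic sequence shared with such a partner cannot be assigned by strand. Which of the overlaps lie in exons was not examined. For 2 members the partner is a protein-coding gene: the 3′ end of Stat3 overlaps that of Stat5a over 142 bases, and Jak1 overlaps Raver2 over 1982 bases. The other partners are noncoding genes, such as 6720470G18Rik, which overlaps the start of Il6st over 239 bases.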

How the data were processed

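SMART-seq libraries, which amplify full-length cDNA without keeping its strand, were sequenced by the authors, who quantified transcripts with Kallisto 0.46.1 on the GENCODE basic annotation and summed them to genes with tximport. The deposited values are a signal, estimated counts that the authors had normalized with DESeq2 by factors specific to gene and library, in 1 table per comparison. Whole reads could not be recovered, so read depth is unknown. Normalized counts summed to 3.32e+07 to 3.76e+07 per library in the culture table and 4.03e+07 to 5.07e+07 in the genotype table, and the number of libraries limits the precision. The deposited fold changes and p-values of the authors' own comparisons, and 18 further per-sample columns (RPM and repeated counts), were not used.

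Values were divided by the mean of the 6 library totals of each table to give RPM. Genes reaching 10 normalized counts in 3 or more libraries were tested on log2(RPM + 1), which understates changes of low genes, with limma 3.58.1 in R 4.3.3 (eBayes with trend and robust moderation, no term other than group), with p-values adjusted by Benjamini-Hochberg across all tested genes. Genotype calls needed an adjusted p no higher than 0.05, a log2 fold change of 1 or more in either direction and a mean level of 5 RPM or more, and culture calls the same adjusted p alone. A gene near 0 in 1 group could pass the filter on counts through the other group alone. The tables were tested separately. The limma step was tested on simulated data.

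The 10 members and all gene lists were chosen with earlier results of these data known. The rule for named genes took all members, Nedd4l, every tested ligand, and the called genes of each list, at most 4 by absolute log2 fold change. Some listed genes are not reported here by name. Ligands of the lists not in either table were Osm, Il27 and Ebi3. Gene positions and canonical transcript lengths were from GENCODE M39 (GRCm39), promoter sequences from RefSeq (GRCm38.p6).

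Libraries 4, 5 and 6 of the culture comparison were paired by the number shared in the labels, which was read as the mouse. Deviations of same-numbered libraries from their group means correlated at -0.0314, -0.00502 and 0.0180. Only MuSC library 6 correlated best with the myoblast library of its own number. Alternatives were another pseudocount (0.1 RPM), filters, scalings and thresholds, limma without trend and robust moderation, a replicate block, and each library left out in turn. The labels give no sequencing batch.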

Additional observations from a re-analysis of the deposited data

How the results depend on the processing

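No member was called between genotypes under any alternative run, and in culture 5 to 6 members were called, the lower count coming from the loss of Osmr without myoblast replicate 6. The 100 genes called between genotypes became 195 when 10 normalized counts were required in every library, 41 in limma without trend and robust moderation, and 17 to 148 with each library left out. The 1 other pathway gene became 3, 0 and 0 to 2 under the same alternatives. The 2 genotypes were taken from different mice, whose replicate numbers pair nothing (correlations of 0.0192, -0.0232 and -0.181, and not every library correlated best with its own number). With that replicate block, 62 genes and 2 other pathway genes were called between genotypes, and with mouse as the block the culture call of Jak3 was the only one lost among named genes. In culture, 4598 to 6398 genes and 19 to 28 other pathway genes were called with each library left out, beside 6566 and 28. The split of 3402 higher and 3164 lower became 3880 and 2714 when each library was scaled to its own total, which moved the median log2 fold change of all genes from 0.04 to 0.14, and 2491 and 2787 under the filter in every library. Signs that turned all belonged to uncalled differences. Scaled to own totals, the genotype differences of Il11 and Socs3 were -0.0032 and -0.12. With each library left out, genotype differences ran from -0.31 to 0.10 for Clcf1, -0.11 to 0.15 for Il11, -0.22 to 0.016 for Jak2, -0.44 to 0.20 for Lifr and -0.30 to 0.22 for Socs3, and culture differences from -0.11 to 1.29 for Ctf1 and -0.15 to 0.34 for Il6st. The cause of these changes was not tested. With 3 libraries per group and intervals often wider than 1 on the log2 scale, moderate changes of Stat3, Socs1 or Osmr between genotypes were not detectable.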
